A study of Mus musculus with 8 samples.

Results

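The genes of the NF-kB transcription factor and of its inhibitors were examined in mouse inner medullary collecting duct cells under hypertonic stress. The 10 genes were chosen by symbol: the subunit genes Nfkb1, Nfkb2, Rela, Relb and Rel, and the inhibitor or feedback genes Nfkbia, Nfkbib, Nfkbie, Bcl3 and Tnfaip3. All 10 were among the 15288 genes of the count table, and all 10 were among the 14024 genes that passed the expression filter and were tested. The cells were of the line labelled IMCD, grown to confluence in serum-containing DMEM. Control cells (n = 4 libraries, replicates 1 to 4) spent 12 h in DMEM without serum, and NaCl cells (n = 4 libraries, replicates 5 to 8) spent the same 12 h in that medium with 100 mmol NaCl, an amount the labels give without a volume. Both groups were therefore also without serum for those hours. The labels do not say whether the libraries came from separate cultures, so p-values measure the spread between these libraries, which may be technical.

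NF-kB is a family of dimeric transcription factors that act in inflammation, immunity and cell survival. In resting cells the dimers are held in the cytoplasm by IkB proteins. Signals from cytokine or pattern-recognition receptors activate the IKK kinases, which mark IkB proteins for degradation and so free the dimers. In the canonical branch the dimers mostly contain the Rela protein with the product of Nfkb1, and in the non-canonical branch they contain Relb with the product of Nfkb2. Several genes of the family are known targets of NF-kB itself, among them the inhibitor Nfkbia and the ubiquitin-editing enzyme Tnfaip3, and thus form feedback loops.

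With NaCl, 5 of the 10 genes fell (Nfkb2, Relb, Nfkbie, Bcl3 and Tnfaip3), by 12.8 to 25.3%, and 0 of 10 rose, by edgeR's quasi-likelihood test at an adjusted p-value under 0.05. Over all tested genes, 17.2% were called lower and 16.9% higher. Rela and Nfkbia, the main activating subunit of the canonical branch and its inhibitor, differed by 3.02% and 3.76% and did not pass the test. The median log2 fold change of the 10 genes was -0.19, beside 0.00287 over all tested genes. The 10 genes are a chosen list, and this median carries no test.

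Promoter sequences are shown first, since several of these genes are known NF-kB targets and the genes that fell could be compared with those that did not. The windows came from RefSeq (GRCm38.p6, the same assembly as mm10), each from 250 bases before to 50 bases after an annotated start. Windows were found for 8 of the 10 genes (11 windows, with 3 for Nfkb2 and 2 for Tnfaip3). Nfkb1 and Relb were not matched. The 250 bases before the start are printed 5′ to 3′ on the strand of the gene for Nfkb2 and Tnfaip3, which fell, for Nfkbia, which did not pass the test, and for Rela, which did not pass and held no match. Capitals mark matches to the kappaB consensus on either strand, and overlapping matches run together.
Nfkb2, chr19:46304487-46304736, plus strand: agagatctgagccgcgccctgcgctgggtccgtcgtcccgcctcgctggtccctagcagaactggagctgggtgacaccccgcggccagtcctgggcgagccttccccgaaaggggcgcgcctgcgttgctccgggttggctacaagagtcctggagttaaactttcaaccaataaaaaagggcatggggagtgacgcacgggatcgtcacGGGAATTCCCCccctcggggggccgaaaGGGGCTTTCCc
Tnfaip3, chr10:19015411-19015660, minus strand: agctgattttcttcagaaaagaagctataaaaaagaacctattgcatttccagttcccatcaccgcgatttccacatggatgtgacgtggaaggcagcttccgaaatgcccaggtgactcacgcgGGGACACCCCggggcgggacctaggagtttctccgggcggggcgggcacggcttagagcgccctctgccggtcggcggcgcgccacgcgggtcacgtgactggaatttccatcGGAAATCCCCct
Nfkbia, chr12:55492648-55492897, minus strand: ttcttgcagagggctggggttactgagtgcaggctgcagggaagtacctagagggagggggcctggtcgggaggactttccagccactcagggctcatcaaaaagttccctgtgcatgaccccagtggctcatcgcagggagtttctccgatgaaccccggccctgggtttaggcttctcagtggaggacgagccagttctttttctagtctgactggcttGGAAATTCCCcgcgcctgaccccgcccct
Rela, chr19:5637291-5637540, plus strand: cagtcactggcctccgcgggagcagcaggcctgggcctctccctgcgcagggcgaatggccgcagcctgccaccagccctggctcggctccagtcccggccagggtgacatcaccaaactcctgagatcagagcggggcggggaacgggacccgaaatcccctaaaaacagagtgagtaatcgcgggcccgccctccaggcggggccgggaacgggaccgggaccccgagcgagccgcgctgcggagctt

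The kappaB consensus was found in the windows of 6 of the 8 genes, namely Bcl3, Nfkb2, Nfkbia, Nfkbie, Rel and Tnfaip3. Counted by window it was in 8 of their 11 windows and in 4.51% of the 32851 windows of 300 bases in the whole table, and windows of the same gene can overlap. Rela and Nfkbib held no match. With the start as position 0, the Nfkbia match lay from -29 to -20, and the Rel matches (GGGAAATCCC and an overlapping one) from -92 to -82. The Nfkbie match GGGGGATTCC lay from -106 to -97. The Bcl3 match GGGAAGTCCC lay from 2 to 11, after the start. The AP-1 pattern TGANTCA, also searched on both strands, was in 3 of the 11 windows (of Nfkb2, Nfkbie and Tnfaip3) and in 7.81% of all windows. Genes with a kappaB match thus included 4 that fell and 2 (Rel and Nfkbia) that did not pass the test. A match is a description of the sequence and was not shown to be bound in these cells.

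Levels were compared between genes as CPM per kilobase of exon, with exon lengths from GENCODE M21 (GRCm38). These lengths join the exons of all annotated transcripts, so genes with long minor transcripts, such as Nfkb1 at 12.061 kb, are set low. In control libraries Rela was highest at 35.1 ± 0.706 CPM per kb (SD, n = 4), above 89.5% of tested genes. Nfkbia followed at 24.0 ± 0.555 and Nfkb2 at 23.5 ± 1.33 CPM per kb, and their control libraries overlapped. Bcl3 had 14.9 ± 0.669, Nfkb1 10.9 ± 0.192 and Nfkbib 9.02 ± 0.120 CPM per kb, without overlap between these neighbours. Relb (6.42 ± 0.363) and Nfkbie (6.27 ± 0.460) overlapped each other. Tnfaip3 had 4.47 ± 0.248 CPM per kb. Rel, best known from lymphocytes, was lowest at 1.645 ± 0.0810 CPM per kb. In NaCl libraries Nfkb2 was at 18.5 ± 1.18 CPM per kb, below all NaCl values of Nfkbia (24.9 ± 0.859).

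Among the subunits Nfkb2 and Relb, the pair of the non-canonical branch, fell. No list of the other genes of that branch was set, so nothing is said of the branch as a whole. Nfkb2 (ENSMUSG00000025225, chr19:46304320-46312385), which encodes a precursor that acts as an inhibitor until it is processed to a DNA-binding subunit, had 115.5, 103.2, 109.2 and 102.4 CPM in control replicates 1 to 4. It had 82.83, 92.25, 79.45 and 84.75 CPM in NaCl replicates 5 to 8. All NaCl libraries lay below all controls. It fell by 21.1%, from 107.6 ± 6.08 to 84.8 ± 5.42 CPM (SD, n = 4 each), and its log2 fold change was -0.34 (SE 0.0495) with an edgeR adjusted p of 5.59e-05. Exons of Psd and AC114539.1 on the opposite strand cover 18.1% of the exon length of Nfkb2, and the strand setting of the counting is not given in the sources used here, so reads there cannot be told apart. Psd itself had 2.32 ± 0.496 CPM in control libraries.

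Relb (ENSMUSG00000002983, chr7:19606217-19629438), the usual partner of the Nfkb2 product, had 26.43, 23.97, 25.88 and 23.55 CPM in control and 16.27, 20.15, 19.99 and 21.34 CPM in NaCl libraries. The groups did not overlap, and NaCl replicate 5 was lowest. It fell by 22.0%, or -0.36 on the log2 scale (SE 0.0782), with an edgeR adjusted p of 0.0019.

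The canonical subunit genes did not pass the test. Rela (ENSMUSG00000024927, chr19:5637483-5648130) had 106.3, 111.0, 107.9 and 106.5 CPM in control and 106.7, 113.0, 113.6 and 111.4 CPM in NaCl libraries, and the groups overlapped. Its log2 fold change was 0.04, with a 95% interval from -0.0311 to 0.117 (edgeR adjusted p = 0.376). Nfkb1 (ENSMUSG00000028163, chr3:135584655-135691547), which encodes the precursor of a DNA-binding subunit, had 132.0, 129.0, 130.7 and 134.5 CPM in control and 135.9, 136.1, 144.3 and 141.4 CPM in NaCl libraries. All NaCl libraries of Nfkb1 lay above all controls, but the difference was small, with a log2 fold change of 0.08 (interval 0.0122 to 0.156) and an edgeR adjusted p of 0.066. It passed with library totals alone as the scaling (adjusted p = 0.039) and with the library number centred within its group as a covariate (0.0255). It was 0.066 without NaCl replicate 7 (adjusted p = 0.199), and 0.0128 (0.919) with a linear drift over library numbers 1 to 8 in the fit.

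Rel (ENSMUSG00000020275, chr11:23736847-23770970), a further activating subunit, had 11.72, 12.83, 12.78 and 11.80 CPM in control and 10.66, 10.85, 10.18 and 11.31 CPM in NaCl libraries. The groups did not overlap, yet the gene did not pass the test, with a log2 fold change of -0.19 (interval -0.357 to -0.0253; edgeR adjusted p = 0.0701). Its counts, from 382 to 559 per library, were the lowest of the 10 genes.

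**Figure D1:**
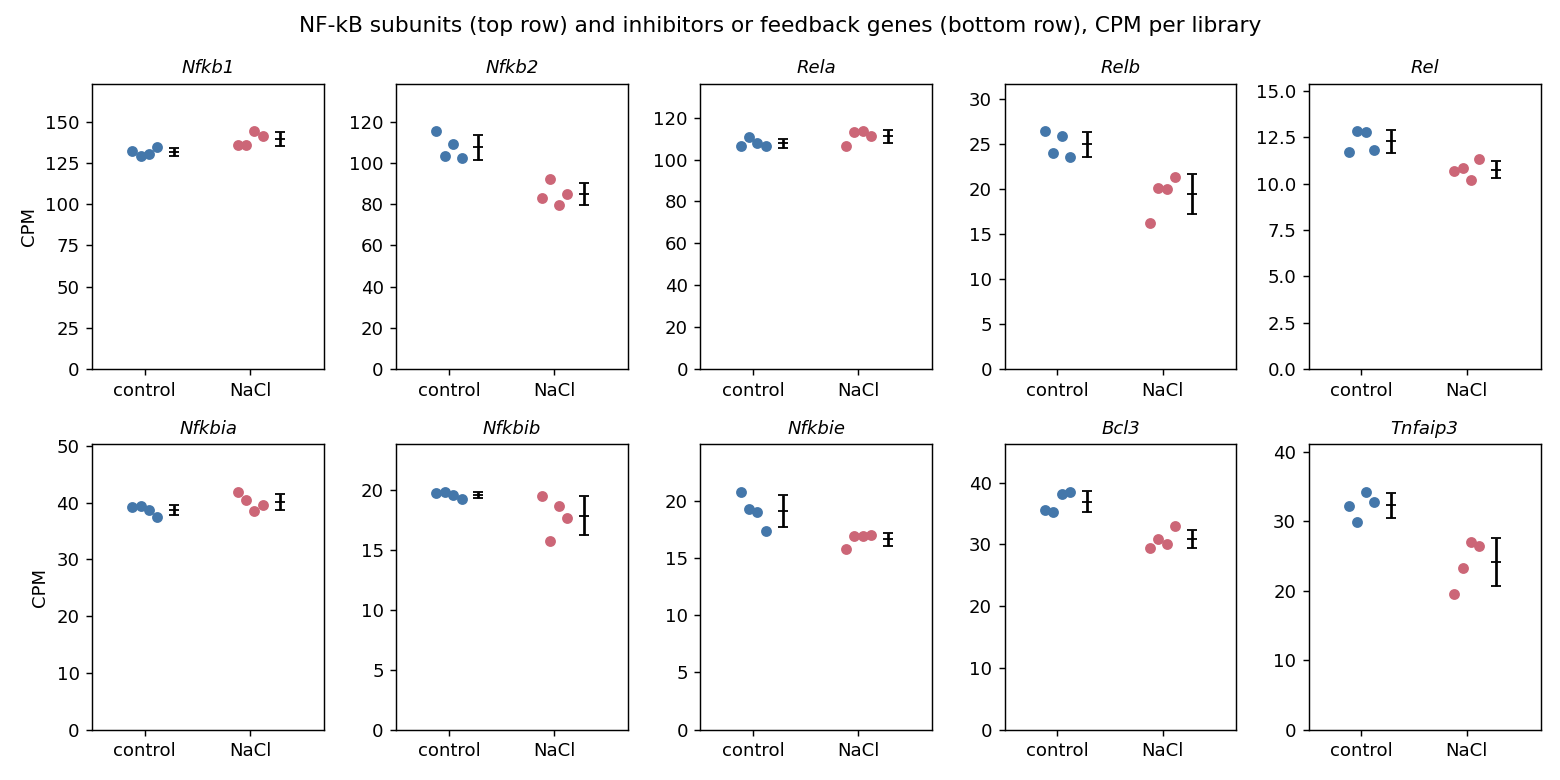
Level of each gene in every library, in CPM on axes that start at 0, with subunits in the top row and inhibitors or feedback genes in the bottom row. Points are libraries, and the bar beside them is the mean ± SD (n = 4). Nfkb2, Relb, Bcl3 and Tnfaip3 have all NaCl libraries below all controls, while the groups of Rela and Nfkbia overlap.

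Among the IkB proteins, which hold the dimers in the cytoplasm, Nfkbia and Nfkbib did not pass the test and Nfkbie was near the threshold. Nfkbia (ENSMUSG00000021025, chr12:55489410-55492647), the inhibitor that is degraded and remade fastest, had 39.17, 39.41, 38.78 and 37.41 CPM in control and 41.90, 40.44, 38.61 and 39.68 CPM in NaCl libraries. The groups overlapped. Its log2 fold change was 0.05 (interval -0.0466 to 0.153; edgeR adjusted p = 0.418), and 0.0326 without NaCl replicate 5 (0.67).

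Nfkbib (ENSMUSG00000030595, chr7:28758251-28767512) had 19.68, 19.80, 19.57 and 19.20 CPM in control and 19.45, 15.68, 18.59 and 17.60 CPM in NaCl libraries. The NaCl libraries were spread more widely (SD 1.62 against 0.258 CPM) and overlapped the controls. Its log2 fold change was -0.14 (interval -0.287 to 0.0164; edgeR adjusted p = 0.161), and -0.078 (0.436) without NaCl replicate 6, its lowest library. Exons of Sirt2 and Ccer2 on the opposite strand cover 16.4% of its exon length, and Sirt2 had 72.0 ± 4.05 CPM in control and 71.8 ± 2.13 CPM in NaCl libraries.

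Nfkbie (ENSMUSG00000023947, chr17:45555703-45563169) had 20.75, 19.25, 18.99 and 17.33 CPM in control and 15.79, 16.88, 16.92 and 16.96 CPM in NaCl libraries. The groups did not overlap, with a gap between control replicate 4 and the highest NaCl library that was small beside the control spread. It fell by 12.8%, or -0.20 on the log2 scale (SE 0.0702), with an edgeR adjusted p of 0.0385. The call was lost when any library other than control replicate 4 was left out, with adjusted p-values from 0.0523 to 0.121, and with library totals alone as the scaling (adjusted p = 0.0526).

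Bcl3 and Tnfaip3, which limit or redirect NF-kB activity by other means, both fell. Bcl3 (ENSMUSG00000053175, chr7:19808462-19822770) encodes a nuclear IkB protein that binds dimers of the Nfkb1 or Nfkb2 products on DNA. It had 35.65, 35.33, 38.18 and 38.50 CPM in control and 29.46, 30.93, 30.10 and 32.92 CPM in NaCl libraries. The groups did not overlap, and the level fell by 16.4%, or -0.26 on the log2 scale (SE 0.0544), with an edgeR adjusted p of 0.00147. Exons of Gm16175 on the opposite strand cover 6.505% of its exon length.

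Tnfaip3 (ENSMUSG00000019850, chr10:19000910-19015657) encodes an enzyme that removes activating ubiquitin chains upstream of the IKK kinases. It had 32.19, 29.94, 34.24 and 32.82 CPM in control and 19.56, 23.32, 27.00 and 26.51 CPM in NaCl libraries. All NaCl libraries lay below all controls, and NaCl replicate 5, which was also lowest for Relb, Nfkbie and Bcl3, was lowest. The fall of 25.3% was the largest of the 10 genes, or -0.42 on the log2 scale (SE 0.0863), with an edgeR adjusted p of 0.00163. Without NaCl replicate 5 all of these genes kept their direction, and of the 5 calls only that of Nfkbie was lost. NaCl replicate 5 also had the fewest total counts. With every library thinned to that total all 5 calls were made, with log2 fold changes of -0.43 for Tnfaip3, -0.34 for Relb and Nfkb2, -0.25 for Bcl3 and -0.225 for Nfkbie (edgeR adjusted p from 6.91e-05 to 0.0186).

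**Figure D2:**
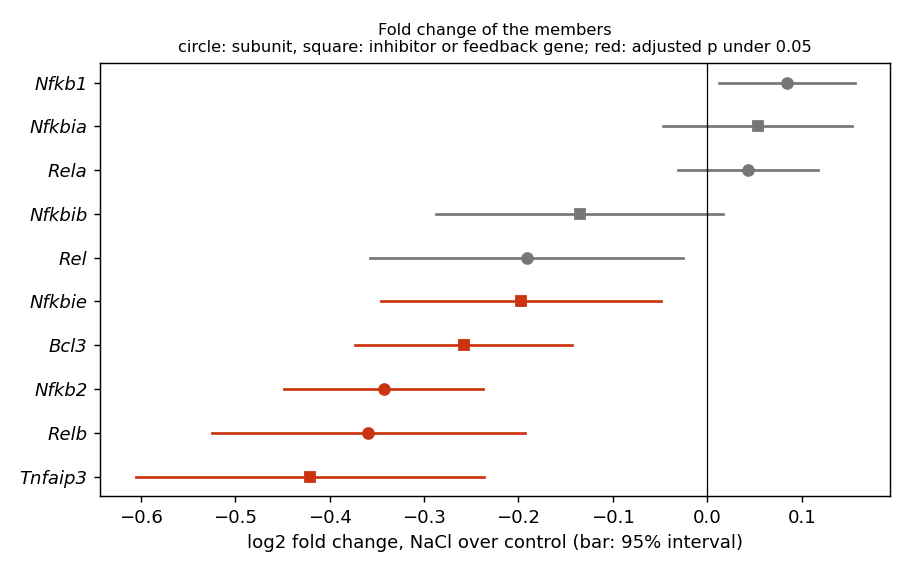
Log2 fold change of each gene, NaCl over control, with its 95% interval from the edgeR fit (n = 4 libraries each). The 5 genes past the threshold, in red, lie between -0.42 and -0.20, and the intervals of Rela, Nfkbia and Nfkbib include 0.

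In total 6 genes had all NaCl libraries below all controls and 1 (Nfkb1) had them above. Over all tested genes these shares were 16.9% and 16.5%, or 33.4% in either direction. The changes were small: by absolute log2 fold change the highest rank among the members was 2250 of 14024, for Tnfaip3. A linear drift over library numbers 1 to 8, fitted beside the group, kept all 10 directions but called 3 of the 10 genes, all lower (12.6% of all tested genes were called lower in that fit). Under it Nfkb2 had a log2 fold change of -0.225 (edgeR adjusted p = 0.0507) and Nfkbie -0.0877 (0.724), while Tnfaip3 moved to -0.765 (3.21e-05) and Bcl3 to -0.436 (0.00134). Of the genes not called, Rela moved to 0.0126 (0.927), Nfkbia to 0.158 (0.24) and Nfkbib to -0.0725 (0.775).

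**Figure D3:**
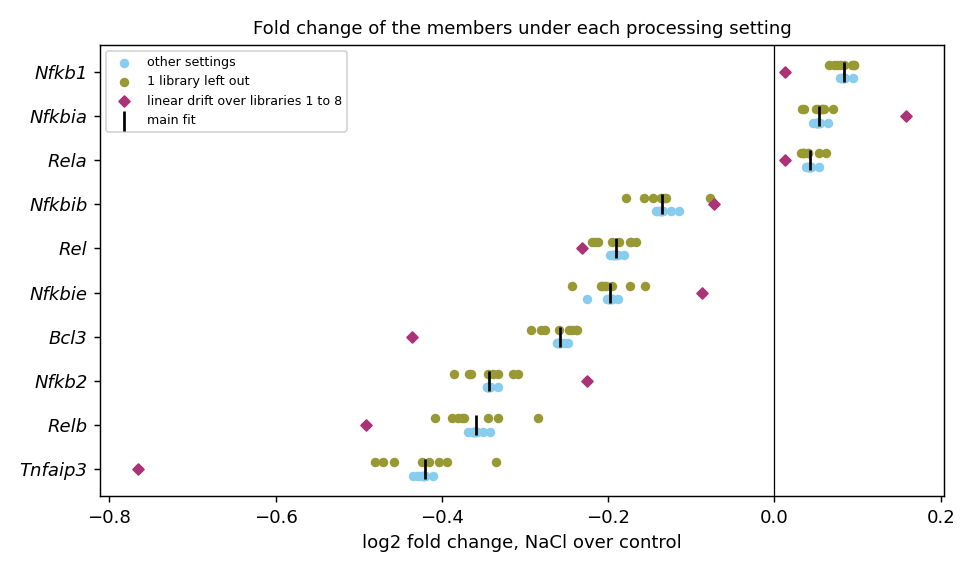
Log2 fold change of each gene (horizontal axis) in the main fit and under 20 alternatives, of which 8 leave out a library. No gene changes direction, and the fit with a linear drift lies farthest from the main value for Tnfaip3, at -0.765.

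The make-up of the subunit mRNA was then described per library, with no test, as shares of the summed CPM per kb of the 5 subunit genes. Rela took 43.7, 46.8, 44.9 and 45.7% in control and 49.8, 49.2, 50.8 and 49.3% in NaCl libraries, so every NaCl share was higher. A share rises when other genes of the sum fall. The level of Rela itself differed by 3.02% (edgeR adjusted p = 0.376), while Nfkb2 and Relb fell. The shares and ratios thus restate the changes of the single genes. Nfkb2 took 31.8, 29.2, 30.5 and 29.5% in control and 25.9, 26.9, 23.8 and 25.2% in NaCl libraries. The ratio of Nfkb2 to Nfkb1 was 2.15 ± 0.129 in control and 1.60 ± 0.136 in NaCl libraries, and that of Relb to Rela 0.183 ± 0.0123 and 0.138 ± 0.0125 (SD, n = 4 each). In both ratios the groups did not overlap. The size of these shares and ratios rests on the exon lengths used, and that of Nfkb1 is long: in CPM, without length, Nfkb1 was the higher gene of the pair, at 131.6 against 107.6 for Nfkb2 in control and 139.4 against 84.82 in NaCl libraries. The ratio of the summed IkB genes Nfkbia, Nfkbib and Nfkbie to the summed Rela, Relb and Rel was 0.910 ± 0.0182 in control and 0.908 ± 0.0591 in NaCl libraries, with overlapping groups. The overlap came from NaCl replicate 5, at 0.996. NaCl replicates 6 to 8 had 0.873, 0.876 and 0.886, below all controls (0.893 to 0.936). Within those 3 IkB genes Nfkbia took 61.1 ± 0.435% and 64.6 ± 1.40%. These are shares of mRNA and say nothing of protein.

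**Figure D4:**
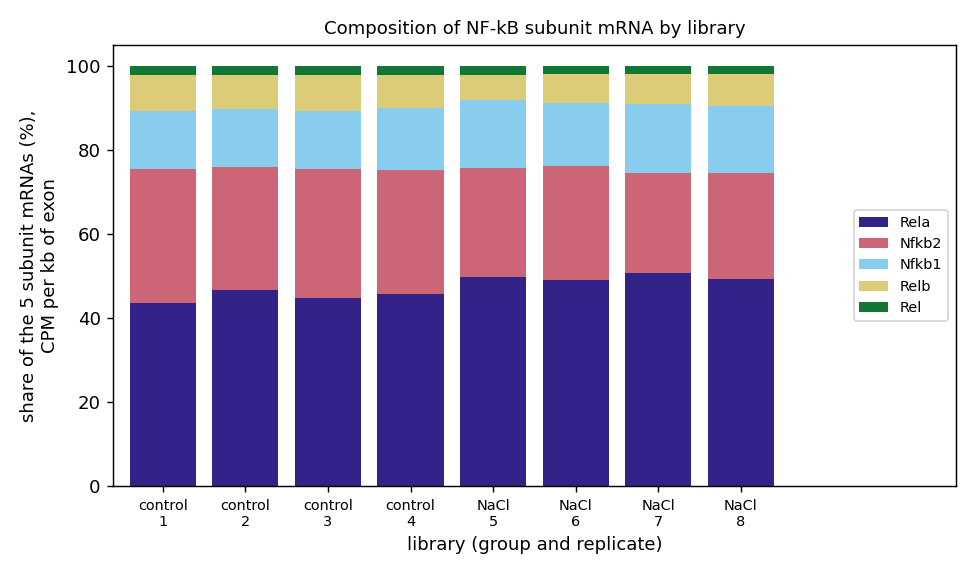
Share of each subunit in the summed CPM per kb of exon of the 5 subunit genes (vertical axis, percent) for each of the 8 libraries. The Rela share is 43.7 to 46.8% in control and 49.2 to 50.8% in NaCl libraries, and the Nfkb2 share is 29.2 to 31.8% and 23.8 to 26.9%.

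The rest of the pathway was described from 5 lists with 106 genes, of which 94 were tested. Of these, 13 rose and 24 fell (39.4% called, beside 34.1% of all tested genes). Of 26 IKK kinases and adaptors 5 rose and 6 fell. The IKK catalytic subunit gene Chuk fell from 58.6 ± 1.55 to 49.2 ± 1.43 CPM (SD, n = 4 each; edgeR adjusted p = 1.94e-04). With the linear drift over libraries in the fit, its log2 fold change of -0.26 became -0.158 and the call was lost (adjusted p = 0.174). Ikbkb, the other catalytic subunit, had 93.98 ± 3.81 and 99.27 ± 1.62 CPM (adjusted p = 0.118). The scaffold subunit Ikbkg fell from 65.5 ± 2.80 to 59.8 ± 2.52 CPM (adjusted p = 0.0326). That call was lost without control replicate 3 or 4 or NaCl replicate 5 or 6 (adjusted p from 0.0693 to 0.0949), and with all libraries thinned to the smallest total (-0.112 on the log2 scale, adjusted p = 0.0805). The adaptor Traf1 fell from 4.36 ± 0.466 to 2.97 ± 0.610 CPM (adjusted p = 0.0125), a log2 fold change of -0.55 that became -0.176 with the drift, without a call (adjusted p = 0.752). The ubiquitin ligase Birc2 rose from 31.3 ± 3.26 to 38.1 ± 0.915 CPM (adjusted p = 0.00286), and Sharpin, of the linear ubiquitin chain complex, from 37.1 ± 2.02 to 42.2 ± 1.80 CPM (adjusted p = 0.0109).

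Of 20 other IkB proteins and negative regulators 1 rose and 3 fell, with a median log2 fold change of -0.00587. Tnip1, a binding partner of the Tnfaip3 protein, fell from 69.6 ± 3.39 to 57.3 ± 1.98 CPM (edgeR adjusted p = 1.36e-04). Its relative Tnip3 fell from a very low level, with 45, 32, 23 and 37 counts in control and 10, 9, 10 and 15 in NaCl libraries (adjusted p = 0.00267). Cyld, a deubiquitinase, rose from 114.5 ± 3.41 to 129.0 ± 4.39 CPM (adjusted p = 0.00164). Sigirr fell from 36.3 ± 4.15 to 28.4 ± 4.32 CPM with overlapping groups (adjusted p = 0.0333). That call was lost without control replicate 2, 3 or 4 or NaCl replicate 5 or 6 (adjusted p from 0.0627 to 0.0867).

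Of 14 tested receptors 2 rose and 4 fell. Tnfrsf12a fell from 146.9 ± 4.58 to 122.0 ± 2.85 CPM (edgeR adjusted p = 1.67e-05). Tlr3, a sensor of double-stranded RNA, fell from 49.7 ± 2.86 to 39.8 ± 2.75 CPM (adjusted p = 3.37e-04). Il1rl1, the receptor of Il33, rose from 30.99 ± 1.84 to 35.4 ± 2.42 CPM (adjusted p = 0.0221), a call lost without control replicate 2 or 4 or NaCl replicate 8 (adjusted p from 0.0586 to 0.0891). Tlr2 rose from 10.8 ± 0.930 to 12.8 ± 1.24 CPM (adjusted p = 0.0456), a call lost without control replicate 1, 3 or 4 or NaCl replicate 5, 6 or 7 (adjusted p from 0.0571 to 0.137). With all libraries kept, the Tlr2 call was also lost under limma-voom (adjusted p = 0.053) and under limma on the authors' normalized values (adjusted p = 0.0511).

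Of 8 tested ligands 2 rose and 2 fell, most at low levels. Il33 fell from 16.9 ± 1.46 to 5.76 ± 1.51 CPM (edgeR adjusted p = 1.93e-06). Lta, a lymphotoxin gene, had 23, 20, 30 and 23 counts in control and 68, 66, 82 and 90 in NaCl libraries (adjusted p = 3.71e-05). Tnfsf15 had 44, 57, 53 and 68 counts in control and 90, 90, 90 and 113 in NaCl libraries (adjusted p = 0.00342). Tnfsf11 had 22, 27, 19 and 19 counts in control and 10, 5, 3 and 8 in NaCl libraries (adjusted p = 0.00912).

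Of 26 tested target genes outside the family 3 rose and 9 fell, with a median log2 fold change of -0.19. The chemokine genes Ccl2 and Ccl7 rose, from 43.0 ± 11.0 to 95.9 ± 12.2 CPM (edgeR adjusted p = 0.00582) and from 5.25 ± 1.47 to 14.2 ± 2.47 CPM (adjusted p = 1.86e-04). The adhesion molecule gene Vcam1 fell from 10.3 ± 1.29 to 3.13 ± 0.643 CPM (adjusted p = 9.20e-08). Ccl20 had 51, 51, 43 and 15 counts in control and 2, 0, 16 and 8 in NaCl libraries, which overlap (adjusted p = 0.00786). The linear drift over the libraries is largely confounded with the group. Over all tested genes, 2598 of the 4789 calls of the main fit were not made in the same direction with it. Of the 24 genes outside the family that were named by rule and called, 12 lost the call in that fit. These were Traf1, Chuk, Birc2, Tnip3, Cyld, Tlr3, Il1rl1, Tlr2, Tnfsf11, Tnfsf15, Lta and Ccl20. All 12 kept their direction. Of these, the log2 fold change moved by over 1.5 times for Birc2 (0.29 to 0.178), Cyld (0.17 to 0.104), Tnfsf15 (0.88 to 0.409) and Tlr2 (0.25 to 0.454), besides Chuk and Traf1. Among genes that were also called with the drift, the change was over 1.5 times larger for Sigirr (-0.35 to -0.934; adjusted p = 2.73e-08), Ikbkg (-0.13 to -0.296), Sharpin (0.19 to 0.352), Ccl2 (1.15 to 2.01) and Ccl7 (1.43 to 2.40). Ikbkb, which was not called, moved from 0.08 to 0.00905.

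**Figure D5:**
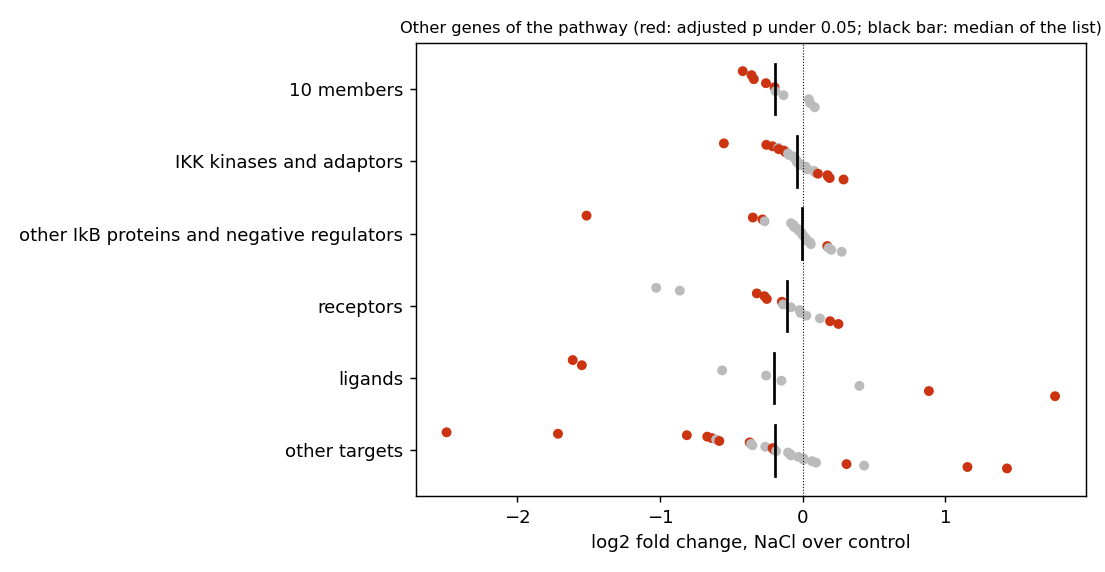
Log2 fold change, NaCl over control, of the 10 family members and of the tested genes in 5 further lists. Each point is a gene, red points had an adjusted p under 0.05, and the black bar is the median of the list. The called target genes reach from -2.50 for Ccl20 to 1.43 for Ccl7, and the members lie between -0.42 and 0.08.

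Tnfaip3 had the largest change, so the genes with the most similar profile were named for it. Likeness was the root mean square difference between log2 CPM profiles over the 8 libraries, each centred on its own mean. The 3 most alike genes outside the family were Cdkn1a (0.0456), P4ha1 (0.0457) and Ccn1 (0.0472). Within the family Relb was the most alike (0.0853) and Nfkbia the least (0.297). Cdkn1a had 146 ± 2.47 CPM in control and 111 ± 14.4 CPM in NaCl libraries (SD, n = 4 each). P4ha1 had 471 ± 14.9 and 371 ± 54.5 CPM, and its edgeR adjusted p of 0.0325 was between 0.0564 and 0.0943 on leaving out control replicate 1, 2, 3 or 4 or NaCl replicate 6. With the linear drift in the fit the log2 fold changes of Cdkn1a, P4ha1 and Ccn1 went from -0.40, -0.35 and -0.45 to -0.70, -0.705 and -0.856.

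The whole libraries held 35.29 to 47.57 M counts, with control replicate 1 highest and NaCl replicate 5 lowest. Each of the 14 collecting duct and epithelial markers was detected, led by Cdh16, with summed levels of 1100 to 1400 CPM in control and 1940 to 2180 CPM in NaCl libraries. Most of the difference in this sum was Cdh16, with means of 637 and 1380 CPM. Other abundant markers had lower means with NaCl, with 216 and 206 CPM for Krt18, 109 and 96.8 CPM for Krt8 and 71.1 and 60.4 CPM for Hoxb7, while Wnt7b had 122 and 166 CPM. Aqp2 and Cdh1, which define the cell type in tissue, were near 0, with at most 15 and 30 counts in any library. Of 12 leukocyte markers 5 were in the table, at 68.3 to 84.1 CPM summed in control and 82.6 to 93.5 CPM in NaCl libraries, mostly Cd14. Ptprc, which defines leukocytes, rose from 4.06 ± 0.346 to 13.5 ± 0.434 CPM (edgeR adjusted p = 5.91e-10), and its part in the changes of the family was not tested. The other leukocyte markers moved in both directions, and their contrast with Ptprc was not tested. In CPM of library totals, Cd14 had 60.9 in control and 65.1 in NaCl libraries, Csf1r 9.18 and 8.88, and Cd68 2.40 and 1.69. Cd79a, with at most 16 counts in any library, had 0.141 and 0.219. Of 6 fibroblast markers 5 were in the table, mostly Col1a1, at 2720 to 3190 CPM summed in control and 2440 to 2810 CPM in NaCl libraries. Pdgfrb of that list was at 37.4 CPM in control and 61.3 CPM in NaCl libraries, opposite to Col1a1. Of 5 endothelial markers 2 were in the table, at less than 1 CPM summed.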

How the data were processed

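RNA of 4 control and 4 NaCl libraries was sequenced. The raw counts per Ensembl gene were deposited by the authors and entered the tests. The normalized values the authors deposited are a signal that scales each raw count with 1 divisor per library, from 0.864 to 1.145. The submitters' processing notes list Trim Galore 0.6.7, STAR, DESeq2 1.34.0 and mm10. The counting program and strand setting are not given in the sources used here.

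The tests used edgeR 4.0.16 under R 4.3.3: filterByExpr at a minimum count of 10, scaling by TMM, glmQLFit (robust) with only the group in the model, and Benjamini-Hochberg adjustment over 14024 genes, with calls at an adjusted p under 0.05. CPM used TMM-scaled totals, log2 CPM a prior count of 2. Standard errors are the absolute log2 fold change over the root of F. Alternatives included limma 3.58.1 and DESeq2 1.42.0. Totals were 35.29 to 47.57 M counts, and replicate pairs differed by more than counting error (chi-square per degree of freedom from 5.24 to 22.97). In both groups the difference grew with the gap in library number. Neighbouring libraries had 5.24 to 10.09, control replicates 1 and 4 had 20.85, and NaCl replicates 5 and 8 had 22.97. The cause of this order was not tested. On simulated data for this comparison (13902 genes), 58% of genes changed 1.25-fold, 78% of those changed 1.5-fold and 92% of those raised 2-fold were recovered. Only 200 genes were changed there, with 168 calls, beside 4789 calls in the data. With fewer changed genes the adjustment is stricter, so these shares do not give the recovery in the data.

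The members and lists were chosen with earlier results of these data known. Named outside the family were the called genes with the 2 highest and 2 lowest fold changes of each list, the 3 IKK genes, and the 3 genes most like the most changed member. All samples had a group.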

Additional observations from a re-analysis of the deposited data

Results flagged for a closer look

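NaCl replicate 5 stood apart for Nfkbie. Its level there was 15.79 CPM, and the remaining 3 libraries of the group lay close together, between 16.88 and 16.96 CPM. The gap to the nearest library was 0.936 of the range of the group, above Dixon's 95% critical value for 4 libraries. In all, 20 groups of values (10 genes in 2 groups) were examined and 1 held such a library, where chance gives about 1. Without NaCl replicate 5 the log2 fold change of Nfkbie was -0.174 (edgeR adjusted p = 0.0947), against -0.20 with it.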

How the results depend on the processing

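No paired analysis was possible because the control and NaCl libraries share no replicate numbers. The 20 alternatives gave 200 results for the 10 family genes, and all kept their direction. The alternative with an adjusted p threshold of 0.01 reused the main fit, so no direction could change there. The call changed in 13 results. Of these, 11 were lost (10 for Nfkbie, including the loss from that threshold alone, and 1 for Nfkb2) and 2 gained (Nfkb1). Of the 5 called members, 3 were called under the linear drift over library numbers, and 4 to 5 when a library was left out. An adjusted p threshold of 0.01 left 3145 of the 4789 genes called over the whole table and 24 of the 37 in the pathway lists. Limma-voom also called 4789 genes, but 110 of them differed from those of edgeR, and 4679 were shared. The drift fit called 3382 genes, of which 2191 were shared in the same direction. With the library number centred within its group in the fit, 6030 genes, 6 members (5 lower, 1 higher) and 43 pathway genes were called, against 4789, 5 and 37. The cause of these differences was not tested. Rel, with 382 to 559 counts per library, had a log2 fold change of -0.198 with all libraries thinned to the smallest total (edgeR adjusted p = 0.0673). Why Rel did not pass was not tested.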

Other observations

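Further NF-kB target genes of the same list are given here, chosen after their values were seen. Plau, which encodes a secreted protease that activates plasminogen, fell from 303 ± 11.7 to 190 ± 15 CPM (SD, n = 4 each; edgeR adjusted p = 8.15e-08). The complement gene C3 fell from 558 ± 53.6 to 372 ± 44 CPM (adjusted p = 0.00238), and the stress-response gene Gadd45b fell from 41.4 ± 1.46 to 26.6 ± 1.42 CPM (adjusted p = 1.27e-07). The chemokine gene Ccl5 rose from 39.1 ± 4.77 to 48.5 ± 2.91 CPM (adjusted p = 0.00785), so the called targets moved in both directions. For each of these 4 genes the groups did not overlap, which held for 33.4% of all tested genes. The 4 genes were picked among called genes, so this adds no support.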
